A study of Mus musculus with 6 samples.

Results

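Cyclic nucleotide phosphodiesterases are the enzymes that break down the second messengers cyclic AMP (cAMP) and cyclic GMP (cGMP). Here 10 of their genes, Pde3a, Pde3b, Pde1a, Pde1b, Pde1c, Pde4b, Pde4d, Pde7b, Pde8a and Pde10a, were followed in mouse aortas without the gene of the long noncoding RNA Mymsl (KO) and in wild-type (WT) aortas. The genes were taken by symbol, and each had its own row among 53735 rows of a table of raw read counts. They were chosen by symbol with the KO over WT fold changes of these libraries already known, above all that of Pde3a, so the fold changes of these genes are given as a description and no test of them is read as support.

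The KO group held 3 libraries from Mymsl knockout mice and the WT group 3 libraries from wild-type control mice. The labels name no treatment and give no age, strain or sex, nor how the knockout was made. The protocol names smooth muscle cells purified from the medial layer as the source of the RNA, and messenger RNA was sequenced from stranded libraries. The labels do not say if 1 library stands for 1 mouse, so the spread between libraries may be partly technical. Because no row is named Mymsl, the knockout could not be checked at its own gene.

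In smooth muscle, cAMP and cGMP promote relaxation through protein kinases A and G, and phosphodiesterases set how long those signals last. The PDE3 enzymes hydrolyse cAMP, and cGMP more slowly, and their breakdown of cAMP is slowed by cGMP, which links both messengers. The PDE4, PDE7 and PDE8 enzymes are specific for cAMP, the PDE1 enzymes are switched on by calcium and calmodulin and act on both nucleotides, and PDE10A also acts on both. In the comparison below, Pde3a, Pde3b, Pde4b, Pde4d, Pde7b and Pde8a are the cAMP-degrading members, and Pde1a, Pde1b, Pde1c and Pde10a are the other members, although these can hydrolyse cAMP too.

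All 10 genes encode the same metal-binding signature of the catalytic domain, whose coding bases are shown because they are the feature that makes these genes 1 family and bear on whether reads of paralogues could be mixed up. Each line gives 36 coding bases of the longest complete coding transcript of GENCODE M21 (GRCm38), read 5′ to 3′ on the strand of the gene. Capitals mark the codons of the histidine, aspartate, histidine and asparagine positions of the signature (glutamine in Pde7b at the last of them).
Pde3a: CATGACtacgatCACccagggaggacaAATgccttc
Pde3b: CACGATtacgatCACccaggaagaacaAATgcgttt
Pde4b: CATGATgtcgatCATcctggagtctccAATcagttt
Pde4d: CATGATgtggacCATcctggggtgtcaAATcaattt
Pde7b: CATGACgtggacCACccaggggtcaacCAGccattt
Pde8a: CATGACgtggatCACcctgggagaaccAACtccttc
Pde1a: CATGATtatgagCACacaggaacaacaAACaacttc
Pde1b: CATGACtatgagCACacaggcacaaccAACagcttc
Pde1c: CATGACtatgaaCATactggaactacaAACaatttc
Pde10a: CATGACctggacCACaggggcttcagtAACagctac
The same base stood at 12 of the 36 positions in all 10 genes. Pde3b shared 30 of the 36 bases with Pde3a and Pde10a shared 19. No stretch of 50 bases in a transcript of any of the 10 genes occurred in a transcript of another phosphodiesterase gene. Of the 50-base stretches of Pde3a, 5.64% occurred in transcripts of other genes on either strand, and for each of the other members the share was at most 0.154%. Each signature lay within a single exon. In Pde3a this was exon 12 of 16 at chr6:141487899-141487934 on the plus strand, and in Pde4d it was exon 11 of 15 at chr13:109939313-109939348 on the plus strand.

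Pde3a spans 141249269 to 141507448 of chromosome 6 on the plus strand, and the antisense gene Gm28523 covers 5.82% of its exonic bases. The sources used here do not give the strand setting of the counting, so reads over that overlap are uncertain. Pde4d is a long gene, with a span of 1504 kb on chromosome 13, and Pde4b spans 519.7 kb on chromosome 4. The other 9 members shared no exonic base with another annotated gene. Counts were made per gene, so isoforms of a gene cannot be separated.

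Total counts per library were between 20048216 and 23243129 in KO and between 23506674 and 25521123 in WT. Mitochondrially encoded genes took 10% to 18.9% of counts in KO and 5.66% to 9.02% in WT. The 8 smooth muscle markers (Acta2, Myh11, Tagln, Cnn1, Smtn, Lmod1, Myocd and Des) summed to 40240, 54210 and 44030 CPM (counts scaled to library size, with trimmed mean of M values factors) in KO replicates 1, 2 and 3. In WT replicates 1, 2 and 3 they summed to 48820, 52210 and 51400 CPM. The sums were thus high in every library, and KO replicates 1 and 3 had lower sums than every WT library. Acta2 and Myh11, the largest parts of each sum, had this order too. Smtn did not, with KO replicate 1 (1681 CPM) above WT replicates 1 and 3 (1631 and 1666 CPM). Of the 8 markers only Myocd had every KO library below all WT libraries, as did 11.3% of all rows tested. It stood at 66.8, 93.7 and 101 CPM in KO and 123, 102 and 121 CPM in WT.

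Pde3a had the highest mean level per length of all phosphodiesterase transcripts in both genotypes and was lower in every KO library. Pde4d was likewise lower in every KO library, and Pde1c, at very low counts, was higher in every KO library. The other 7 members overlapped between genotypes. Among the 14145 rows tested with edgeR's quasi-likelihood test, 0.00707% passed an adjusted p of 0.05 (Benjamini-Hochberg), and 0 of the 10 members did. At an unadjusted p under 0.05 there were 3 members, beside 14.6% of all rows tested. DESeq2 gave an adjusted p to 5 members and called 2 of them lower in KO, Pde3a and Pde4d, beside 2.22% of its rows called in either direction and 1.49% called lower. All KO libraries lay below all WT libraries for 2 members and for 11.3% of all rows tested, and above them for 1 member and for 10.5%. Because this contrast was known when the genes were picked, nothing is read from these counts.

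**Figure D1:**
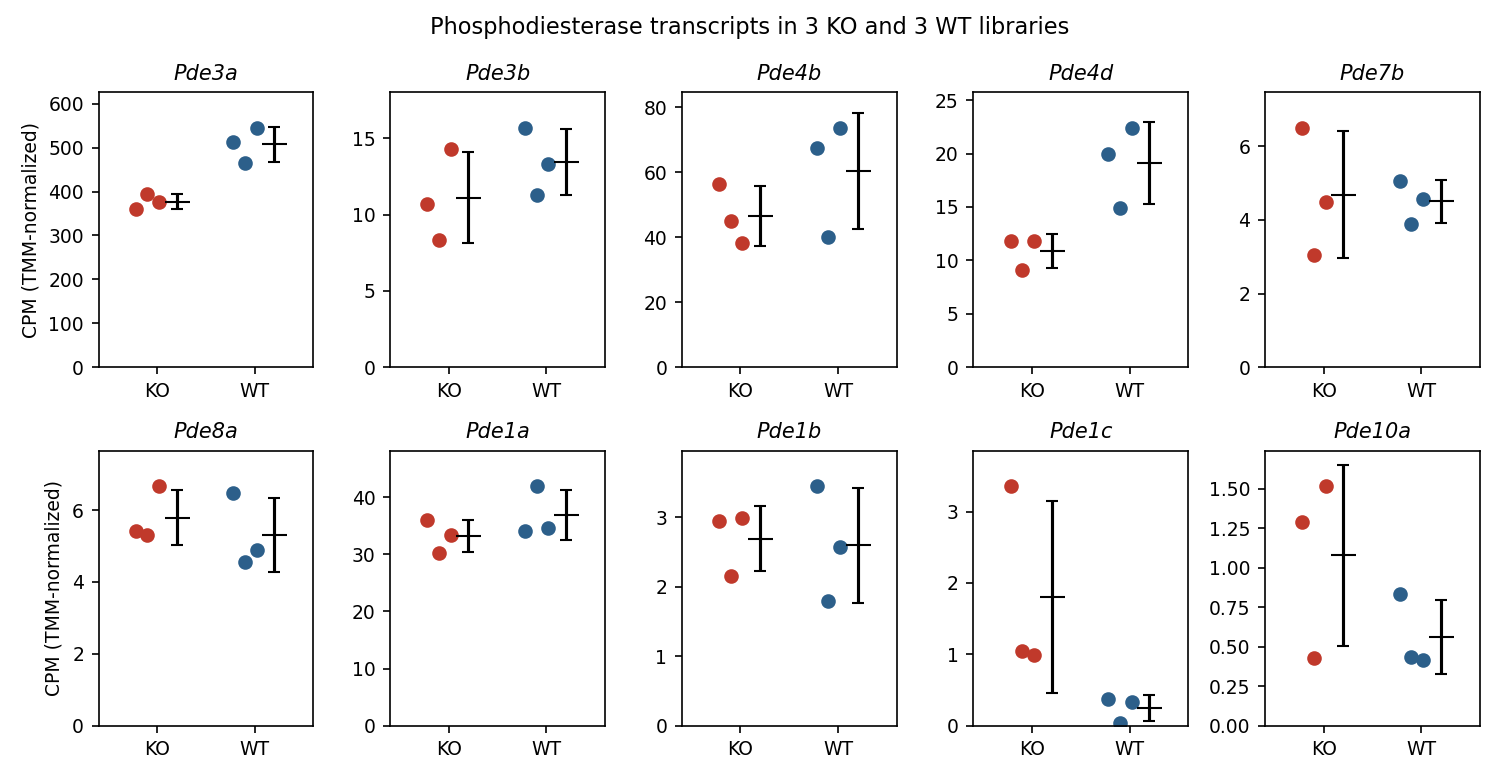
Level of each member in CPM (vertical axes, each from 0) in the 3 KO libraries (left, red) and the 3 WT libraries (right, blue), with points for libraries and black bars for mean ± SD. Pde3a and Pde4d had every KO point under every WT point, and Pde1c had every KO point above every WT point.

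Pde3a encodes a phosphodiesterase of cardiac and vascular muscle and is the target of drugs that relax vessels and strengthen the heartbeat. The level of Pde3a was 361 CPM in KO replicate 1, 395 in KO replicate 2 and 376 in KO replicate 3, against 514 CPM in WT replicate 1, 465 in WT replicate 2 and 545 in WT replicate 3. The genotypes did not overlap: the highest KO library, replicate 2, stayed under the lowest WT library, also replicate 2. The means were 377 ± 16.9 CPM in KO and 508 ± 40.4 CPM in WT (SD, n = 3 each), and edgeR gave a log2 fold change of −0.43 ± 0.082 (SE). The spread was narrower among KO than among WT libraries.

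Relative to the summed smooth muscle markers of the same library, the picture was less separated. Per 10000 CPM of those markers, Pde3a stood at 89.7, 72.8 and 85.5 CPM in KO replicates 1, 2 and 3, against 105, 89.1 and 106 CPM in WT replicates 1, 2 and 3. On this scale KO replicate 1 lay just above WT replicate 2, so the genotypes overlapped. These are bulk libraries, in which fewer cells of a type and less RNA per cell cannot be told apart, even though the protocol names purified smooth muscle cells as the source. The part of the smooth muscle content in the Pde3a difference was not tested.

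Its paralogue Pde3b, which encodes the phosphodiesterase best known from insulin action in fat cells, measured 10.7, 8.36 and 14.3 CPM in KO, against 15.7, 11.3 and 13.3 CPM in WT. These values overlapped, with KO replicate 3 above 2 of the WT libraries. The log2 fold change was −0.27 ± 0.207 (SE). Markers of other cell types were counted in these libraries, although the protocol names purified smooth muscle cells. Summed levels of 10 adipocyte markers were 626 to 732 CPM in KO and 571 to 750 CPM in WT. Most of each sum was Plin4, at 407 to 452 CPM in KO and 419 to 542 CPM in WT. Adipoq stood at 8.41, 7.79 and 18.04 CPM in KO and 16.65, 7.55 and 4.35 CPM in WT. For Adipoq and Pde3b, KO replicate 3 and WT replicate 1 were the highest of their groups. The same held for the markers Plin1, Cfd, Cidec, Fabp4, Lipe and Ucp1. For Plin4 and Lep the highest were KO replicate 1 and WT replicate 2, and for Cidea KO replicate 3 and WT replicate 3. None of the 10 markers was at 0 in all libraries, none separated the genotypes, and their part in the Pde3b values was not tested.

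Pde4d, a cAMP-specific enzyme whose isoforms are anchored at many places in the cell, stood at 11.8, 9.08 and 11.9 CPM in the KO libraries (replicates 1, 2 and 3), against 20, 14.9 and 22.4 CPM in the WT libraries. All KO libraries lay under all WT libraries, and KO replicate 2 and WT replicate 2 were the lowest of their groups. The log2 fold change was −0.81 ± 0.174 (SE). Per 10000 CPM of smooth muscle markers, Pde4d stood at 2.94, 1.67 and 2.69 CPM in KO and 4.09, 2.85 and 4.36 CPM in WT. As with Pde3a, KO replicate 1 then lay above WT replicate 2.

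Pde4b, a second cAMP-specific enzyme that is prominent in immune cells, stood at 56.4, 45.1 and 38.1 CPM in the KO libraries (replicates 1, 2 and 3), against 67.5, 40.1 and 73.7 CPM in the WT libraries. WT replicate 2 was below 2 of the KO libraries, so the genotypes overlapped. The log2 fold change was −0.38 ± 0.232 (SE), and without WT replicate 2 it was −0.60. Summed levels of 10 macrophage and myeloid markers were 100, 47.1 and 123 CPM in KO and 87.8, 50.9 and 79.5 CPM in WT, none of them at 0 in all libraries. Their part in the Pde4b values was not tested.

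Pde7b and Pde8a encode cAMP-specific enzymes with high affinity for cAMP. Pde7b measured 6.5, 3.06 and 4.5 CPM in KO and 5.06, 3.89 and 4.55 CPM in WT, with the WT values inside the range of the KO values. Pde8a measured 5.42, 5.3 and 6.66 CPM in KO and 6.48, 4.57 and 4.89 CPM in WT, again overlapping. Their log2 fold changes, 0.054 ± 0.27 for Pde7b and 0.13 ± 0.182 for Pde8a (SE), were smaller than their standard errors. The sign for Pde7b turned with 1 library: it was −0.25 without KO replicate 1 and 0.28 without KO replicate 2.

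Among the calcium-activated enzymes, Pde1a was the one at an appreciable level. It measured 36, 30.3 and 33.4 CPM in KO and 34, 41.9 and 34.6 CPM in WT, and only KO replicate 1 kept the groups from separating, as it lay above 2 WT libraries. The log2 fold change was −0.15 ± 0.105 (SE), and without WT replicate 2, the highest library, it was −0.047. Pde1b, which is best known from brain and immune cells, measured 2.94, 2.15 and 2.99 CPM in KO and 3.45, 1.79 and 2.57 CPM in WT, with a log2 fold change of 0.051 ± 0.279 (SE).

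Pde1c encodes the calcium-activated enzyme that is known from heart muscle and from dividing human smooth muscle cells. It had 65, 22 and 23 counts in KO replicates 1, 2 and 3, against 9, 1 and 8 counts in WT replicates 1, 2 and 3. In CPM this was 3.35, 1.05 and 0.995 in KO and 0.374, 0.0397 and 0.331 in WT, where a count of 3 corresponds to 0.119 to 0.155 CPM in these libraries. WT replicate 2, with a single count, was under that floor. The log2 fold change was 2.83 ± 0.732 (SE) and was 2.03 without KO replicate 1.

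Pde1c passed the low-count filter through KO alone: 3 KO libraries and 0 WT libraries reached the minimum of 0.428 CPM. A gene that enters the test in this way had to be higher in KO, so its direction is no result. The 10 heart muscle markers summed to 161, 106 and 89.5 CPM in KO replicates 1, 2 and 3 and 110, 78.6 and 112 CPM in WT replicates 1, 2 and 3. Of these markers 1 of 10, the myosin light chain Myl4, had every KO library above all WT libraries, as did 10.5% of all rows tested. Ryr2 was the largest part of each sum, at 81.43, 78.15 and 69.47 CPM in KO and 87.5, 54.43 and 93.12 CPM in WT. The cardiac myosin gene Myh6 stood at 13.4, 3.06 and 0.433 CPM in KO and 0.374, 1.63 and 0.414 CPM in WT, so KO replicate 1 was highest for Pde1c and for Myh6. It was also highest for Myl7, Actc1, Tnnt2, Tnni3, Myl4 and Mybpc3, whereas Ryr2 was highest in WT replicate 3. The defining ventricular light chain Myl2 was at 0 in all libraries but WT replicate 2 (0.0397 CPM), and the atrial hormone gene Nppa was at 0 in all but KO replicate 1 (0.155 CPM). The part of heart muscle RNA in the Pde1c values was not tested.

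Pde10a, which is known above all from the striatum of the brain, measured 1.29, 0.43 and 1.51 CPM in KO and 0.83, 0.437 and 0.414 CPM in WT. KO replicate 2 lay within the WT values, and the log2 fold change of 0.94 ± 0.513 (SE) rested on 69 counts in KO and 41 in WT. Nerve and Schwann cell markers summed to 406 to 472 CPM in KO and 429 to 486 CPM in WT. Of the 8, the neuronal Elavl4 was at 0 in every library, and their part in the Pde10a values was not tested.

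Between genes, levels can be compared only per length, as CPM per kb of exonic sequence. On that scale Pde3a averaged 29.6 ± 1.33 in KO and 39.9 ± 3.17 in WT (SD, n = 3 each), and no other member came near. Pde1a averaged 5.53 ± 0.472 in KO and 6.13 ± 0.732 in WT, and Pde4b 4.41 ± 0.875 in KO and 5.72 ± 1.69 in WT. These neighbours overlapped in both genotypes. In KO, Pde8a (1.43 ± 0.186), Pde3b (1.22 ± 0.33) and Pde4d (0.909 ± 0.132) followed, and the Pde8a and Pde4d libraries did not overlap. In WT the order of these genes was Pde4d (1.59 ± 0.319), Pde3b (1.48 ± 0.24) and Pde8a (1.31 ± 0.253), with overlapping values. Pde1b, at 0.499 ± 0.087 in KO and 0.482 ± 0.154 in WT, overlapped with Pde7b, at 0.376 ± 0.139 in KO and 0.362 ± 0.0472 in WT. The lowest level in KO was that of Pde10a, at 0.0839 ± 0.0445, which overlapped with Pde1c at 0.0897 ± 0.067. In WT the lowest was Pde1c, at 0.0124 ± 0.00906, under Pde10a at 0.0436 ± 0.0182 with no overlap.

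**Figure D2:**
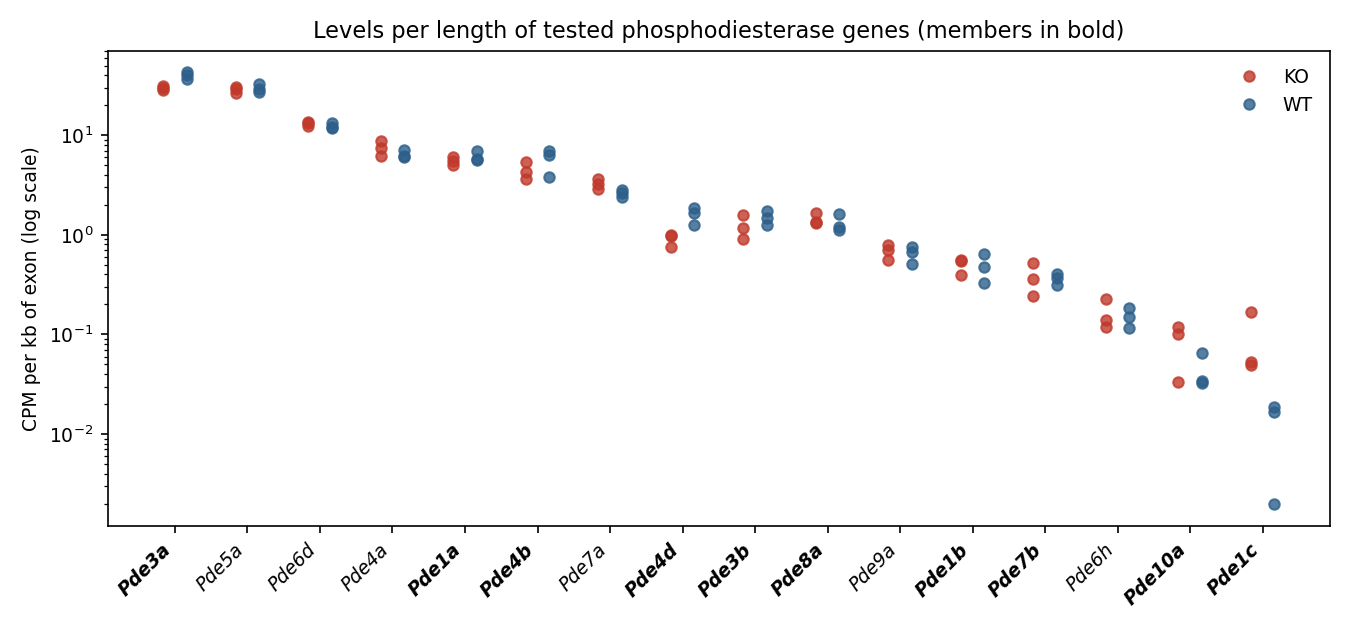
CPM per kb of exon on a log scale for the tested genes with phosphodiesterase names (Pde6d and Pde6h are not enzymes), with the 3 KO libraries (left, red) and the 3 WT libraries (right, blue) of each gene and the members in bold. Pde3a and Pde5a stand at the top, and Pde10a and Pde1c at the bottom of the range.

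Most of the members' transcript pool was Pde3a. Per length it made up 63.7%, 70.4% and 67.2% of the summed level of the 10 members in KO replicates 1, 2 and 3, against 68.9%, 70.8% and 70.2% in WT replicates 1, 2 and 3. This share overlapped between genotypes. The summed level of the 10 members was 44.5, 44 and 44 CPM per kb in KO and 58.5, 51.6 and 61 in WT, without overlap. Leaving out Pde3a, it was 16.2, 13 and 14.4 in KO and 18.2, 15.1 and 18.2 in WT, and KO replicate 1 then lay above WT replicate 2.

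The view was widened to 24 genes with phosphodiesterase names, of which Pde6d encodes a prenyl-binding protein and Pde6g and Pde6h encode inhibitory subunits. Over the other 21 genes, which encode enzymes, Pde3a held 35.1% ± 2.23 of the summed level per length in KO and 41.3% ± 2.09 in WT (SD, n = 3 each). Over all 24, where Pde6d alone held 13.3% ± 0.53 in KO and 11.4% ± 0.583 in WT, the share of Pde3a was 30.4% ± 2.02 in KO and 36.5% ± 1.91 in WT. Pde5a, the cGMP-specific enzyme blocked by drugs such as sildenafil, held 33.9% ± 2.0 of the 21 genes' level in KO and 30.8% ± 3.54 in WT. In KO replicate 1, Pde5a (30.7 CPM per kb) stood above Pde3a (28.4 CPM per kb), whereas in every WT library Pde3a stood above Pde5a. Pde2a, an enzyme that cGMP stimulates, was listed at 0 in all libraries. In GENCODE M21, 64.3% of its exonic bases are shared with Gm45837 on the same strand, but the annotation used for the counting is not given. The part of this overlap in the 0 was not tested, and the 0 is not read as absence of Pde2a transcripts. Pde2a entered the shares above as 0.

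Of the 14 phosphodiesterase genes outside the 10 members, 6 were tested, including the non-catalytic Pde6d and Pde6h. In edgeR and in DESeq2 0 passed, and in edgeR 1 had an unadjusted p under 0.05. Their median log2 fold change was 0.10, against 0.012 over all rows tested, and 5 of 6 were above 0. Of all rows tested, 47.5% were below 0. The cAMP-specific Pde7a, which is found in immune cells, measured 22.5, 25.2 and 28.3 CPM in KO and 20.5, 22.1 and 18.8 CPM in WT, with all KO libraries above all WT libraries (0.31 ± 0.105, SE; edgeR adjusted p = 0.279). Pde4a, another cAMP-specific enzyme, had 0.21 ± 0.132 (edgeR adjusted p = 0.465). Pde5a measured 282 ± 21.1 CPM in KO and 291 ± 26.8 CPM in WT (SD, n = 3 each; −0.046 ± 0.092, SE).

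**Figure D3:**
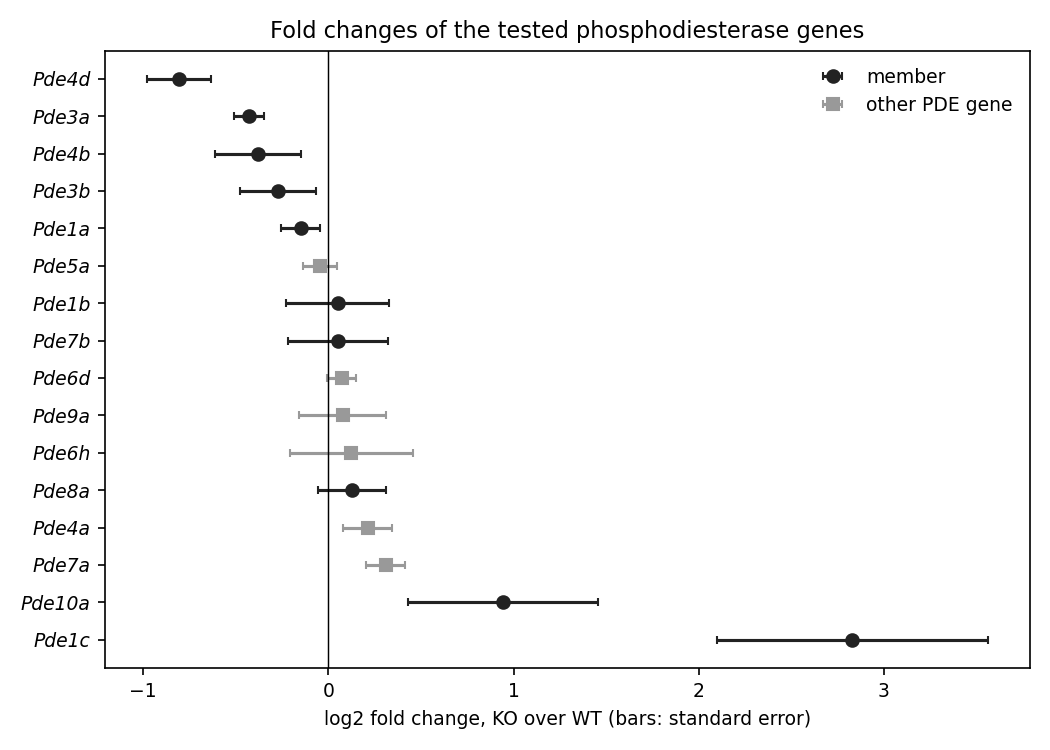
Log2 fold change, KO over WT, of the tested phosphodiesterase genes, with members as black circles, other genes as grey squares and standard errors as bars. Pde4d (−0.81) and Pde3a (−0.43) lie at the low end and Pde1c (2.83) at the high end.

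The cAMP-degrading members were set against the other members, as a description only. Among the 6 cAMP-degrading members 4 had a log2 fold change below 0, with a median of −0.32, and among the 4 other members 1 was below 0, with a median of 0.50. Over all rows tested, 47.5% were below 0. The difference between the medians was −0.82, with Pde1c, whose direction is no result, counted among the other members. It was −0.28 with a mean count of at least 50, a filter that removes the rare Pde1c and Pde10a. With members of at least 10 CPM, which also removes Pde1b, Pde7b and Pde8a and leaves Pde1a alone on the other side, it was −0.25.

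Within each library, the mean log2 level relative to the WT mean was −0.16, −0.50 and −0.21 for the cAMP-degrading members in KO replicates 1, 2 and 3, against 0.17, −0.27 and 0.10 in WT replicates 1, 2 and 3. WT replicate 2 lay within the KO values. For the other members the scores were 1.23, 0.30 and 0.84 in KO and 0.39, −0.43 and 0.04 in WT, and KO replicate 2 was below WT replicate 1. The score of the cAMP-degrading members minus that of the other members was −1.38, −0.80 and −1.05 in KO and −0.22, 0.16 and 0.06 in WT, without overlap. Leaving out Pde1c, it was −0.61, −0.24 and −0.70 in KO and −0.13, −0.10 and 0.22 in WT, still without overlap. The gap between KO replicate 2 and WT replicate 1 was then less than the spread within either group. Pde1c had passed the low-count filter through KO alone, and the members were chosen with their fold changes known. Nothing is therefore read from the lack of overlap, with or without Pde1c.

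**Figure D4:**
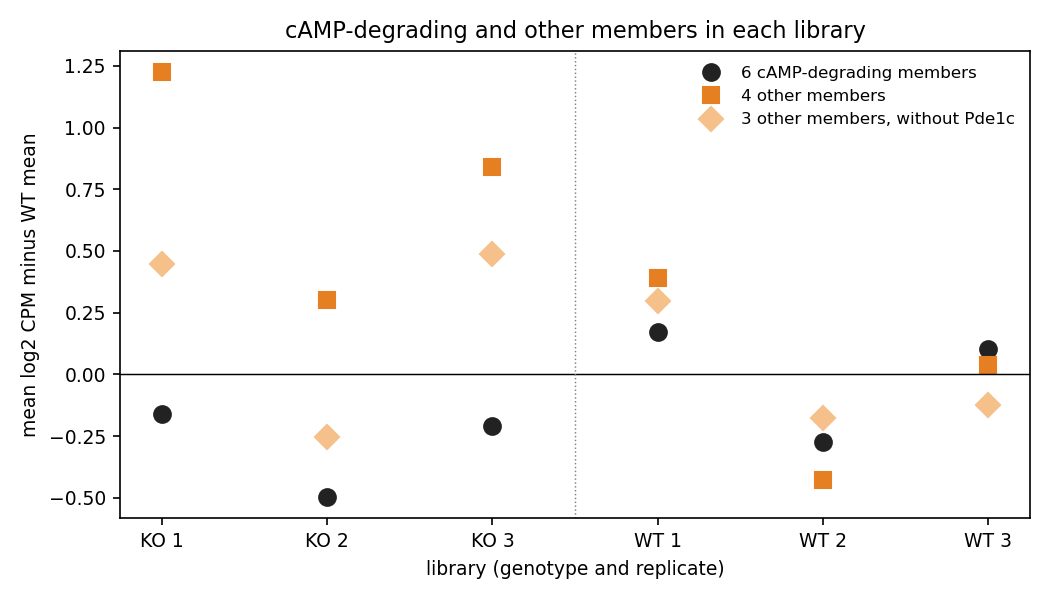
Mean log2 CPM minus the WT mean (vertical axis) in each KO library (left) and WT library (right), for the 6 cAMP-degrading members (black circles), the 4 other members (orange squares) and the others without Pde1c (pale diamonds). The circles lie under the squares in all 3 KO libraries, and in WT replicates 2 and 3 they lie above them.

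The genes most like Pde3a over the 6 libraries, by Pearson correlation of log2 CPM, were Appbp2 (r = 0.998), Frmd4a (0.995), Hdac9 (0.992), Rsf1 (0.992) and Pafah1b1 (0.992). These are descriptions over 6 libraries that share the split by genotype, and 130 of 12607 genes compared had r above 0.95. Hdac9, a class II histone deacetylase, measured 52.3, 56.3 and 54.9 CPM in KO and 71.6, 65.2 and 80 CPM in WT. Pafah1b1, a regulator of the dynein motor, measured 214, 225 and 222 CPM in KO and 250, 243 and 255 CPM in WT. Leaving out any single library, only 1 or 2 of the 5 genes stayed among the nearest 5.

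The rest of the cyclic nucleotide pathway was described by gene lists. Counting each list against the same fit, 91 genes outside the members were tested in these lists, 0 passed in edgeR and 16 had an unadjusted p under 0.05, beside 14.6% of all rows tested. DESeq2 called 1 of the 63 to which it gave an adjusted p, the receptor gene Calcrl, beside 2.22% of its rows. Neither count is read as a result about these lists. The lists' medians lay between −0.20 and 0.14 on the log2 scale, against 0.012 for all rows tested. Of all rows tested, 47.5% were below 0. Counts of genes below or above 0 in a list are likewise not read as a result.

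At the start of the pathway stand receptors that couple to the stimulatory G protein. Calcrl, the receptor for calcitonin gene-related peptide and adrenomedullin, measured 63.2, 81.5 and 66.1 CPM in KO and 105, 93.8 and 90.6 CPM in WT, with all KO libraries under all WT libraries (log2 −0.46 ± 0.107, SE; edgeR adjusted p = 0.261; DESeq2 adjusted p = 0.0214). Of 13 tested receptor genes and accessory proteins, 4 were below 0 and 9 above. All 7 G protein alpha subunits were tested, with 5 below 0. Gnai3, an inhibitory subunit, had −0.17 ± 0.068 (SE; edgeR adjusted p = 0.318) and Gnal −0.38 ± 0.24 (SE; adjusted p = 0.476).

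Adenylyl cyclases, which make cAMP, went in both directions, with 5 of 8 tested genes below 0 and a median of −0.13. Adcy5, the most counted of them, measured 950, 1243 and 1142 CPM in KO and 1117, 1352 and 1226 CPM in WT, with overlap (−0.15 ± 0.122, SE). Adcy6 lay higher in every KO library, at 190 ± 8.47 CPM in KO and 170 ± 8.58 CPM in WT (SD, n = 3 each; edgeR adjusted p = 0.342). Adcy4, a cyclase of endothelial cells, measured 15.9, 15.5 and 22.4 CPM in KO and 15.2, 10.8 and 10.1 CPM in WT (0.58 ± 0.2, SE; edgeR adjusted p = 0.28). The 10 endothelial markers summed to 468, 424 and 737 CPM in KO and 501, 405 and 375 CPM in WT, none at 0 in all libraries, and were highest in KO replicate 3, as Adcy4 was. Their part in the Adcy4 values was not tested.

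Protein kinase A carries most effects of cAMP. Of 8 tested subunits and inhibitors 5 were below 0, with a median of −0.18. The catalytic subunit Prkacb measured 163, 186 and 180 CPM in KO and 199, 212 and 211 CPM in WT, with no overlap (−0.23 ± 0.071, SE; edgeR adjusted p = 0.277). The kinase inhibitor Pkig measured 73.3, 79.7 and 68.8 CPM in KO and 59.1, 66 and 51.8 CPM in WT, with all KO libraries above (0.33 ± 0.099, SE; edgeR adjusted p = 0.277). Among the anchoring proteins that hold the kinase, 10 of 11 tested genes were below 0, beside 47.5% of all rows tested, with a median of −0.14. Akap11 had −0.19 ± 0.068 (SE; edgeR adjusted p = 0.285), and Akap8, a nuclear anchoring protein, was the only one above 0, at 0.25 ± 0.087 (SE; edgeR adjusted p = 0.279).

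Downstream, 7 of 9 genes of the CREB family and its coactivators were below 0 (median −0.10), with Crtc2 at 0.19 ± 0.077 and Crtc3 at −0.29 ± 0.132 (SE; edgeR adjusted p = 0.327 and 0.353). Of the early genes that cAMP induces, 7 of 9 were above 0 (median 0.076), and 0 of them had an unadjusted p under 0.05. Per1, which is also a clock gene, measured 125, 107 and 111 CPM in KO and 67.7, 139 and 26.3 CPM in WT, spread widest in WT (edgeR adjusted p = 0.608). Ppargc1a, a coactivator of mitochondrial genes, had −0.12 ± 0.159 (SE). Of the effectors that bind cyclic nucleotides directly, 6 of 12 were tested, with Rapgef4 at 0.28 ± 0.172 and the channel gene Hcn2 at 0.67 ± 0.437 (SE; edgeR adjusted p = 0.452 and 0.481).

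On the cGMP side, 7 of 11 tested genes were below 0, with a median of −0.20. The guanylyl cyclase subunit counted under the older symbol Gucy1b3 averaged 329 ± 16.8 CPM in KO and 379 ± 12.8 CPM in WT (SD, n = 3 each), without overlap (−0.20 ± 0.069, SE; edgeR adjusted p = 0.279). The protein kinase G gene Prkg1 measured 35.6, 59.6 and 47.2 CPM in KO and 58.4, 58.7 and 73.8 CPM in WT (−0.42 ± 0.18, SE; edgeR adjusted p = 0.342). Calmodulin is the protein that activates the PDE1 enzymes, and its genes Calm3 and Calm2 had log2 fold changes of −0.11 ± 0.083 and −0.033 ± 0.082 (SE).

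**Figure D5:**
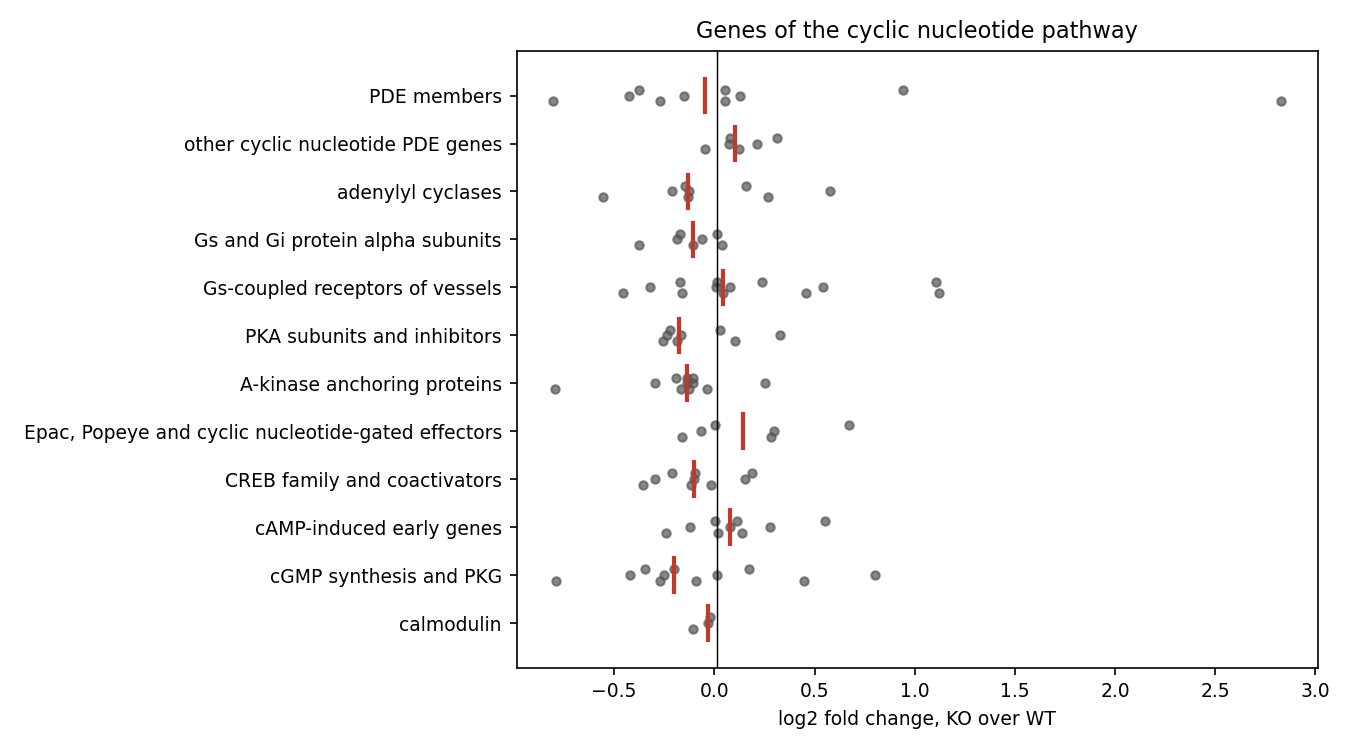
Log2 fold change, KO over WT (horizontal axis), of every tested gene in each list (points, shifted vertically for legibility), with the list median in red and the median of all rows tested as a black line. The list medians lie between −0.20 and 0.14, and the members' list holds the point farthest to the right (Pde1c, 2.83).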

How the data were processed

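The authors deposited 1 table of whole-number read counts, with 1 column for each of 6 libraries (3 KO, 3 WT). The submitters' processing notes name GRCm38, featureCounts (Subread 1.6.1), STAR 2.6.0c and Trimmomatic 0.36. The sources used here do not give the annotation, the strand setting or how multiply mapping reads were treated. Columns were assigned by the names in the labels.

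In R 4.3.3, edgeR 4.0.16 (quasi-likelihood test) was run on the counts over all rows that passed filterByExpr (minimum count 10, minimum total count 15), with TMM scaling, genotype as the only term and Benjamini-Hochberg adjustment at 0.05. DESeq2 1.42.0 and limma-voom (limma 3.58.1) were alternatives. All were tested on simulated data. Standard errors were the absolute log2 fold change over the square root of F. Correlations used log2 CPM with a prior count of 2. Exonic lengths and coding bases came from GENCODE M21. A floor of 3 counts per library covers counting error only.

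Members and lists were chosen with earlier results of these data known. The text names all members, for each list the 2 genes with the smallest p and any that passed, and the 5 genes most like Pde3a. The heart muscle and adipocyte markers named singly, Elavl4, Pde5a, Pde2a and Adcy5 were chosen after their values were seen. So were the smooth muscle markers set apart from their sum. A gene that the rule took is not reported here. The design text speaks of 3 pairs of mice, but not of what a replicate number shares. The fit was therefore unpaired, with the replicate block as an alternative. Libraries of the same number had correlations of 0.107, 0.134 and −0.0556 in their deviations from the group means. For KO and WT libraries of different numbers these correlations were −0.283 to 0.179.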

Additional observations from a re-analysis of the deposited data

How the results depend on the processing

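Pde3a (−0.489 to −0.371), Pde4d (−0.957 to −0.672), Pde4b, Pde3b and Pde1a kept log2 fold changes below 0 under all 13 alternatives each, and Pde1c, Pde10a and Pde8a kept values above 0 under all that gave one. For Pde1c this is no result, since in the main fit it passed the low-count filter through KO alone. Pde7b and Pde1b were below 0 under 3 alternatives each. The count of members called was 0 in edgeR and limma-voom and 2 with the DESeq2 test, the count of pathway genes called was 0 and 1, and the count of all genes called was 1 and 204; edgeR called 9 genes with no filter. Leaving out each library in turn, it called 0 to 3 genes, 0 of them members or pathway genes. The series' design text speaks of 3 pairs of mice without saying what a replicate number shares, the data did not settle it, and with the replicate block edgeR called 0 genes and 0 members. The difference between the medians of cAMP-degrading and other members lay between −1.04 and −0.624 over left-out libraries, with Pde1c included each time. It was −0.276 with a mean count of at least 50, −0.323 with Pde10a counted among the cAMP-degrading members, and −0.254 with members of at least 10 CPM. Leaving out a library kept 1 to 2 of the 5 genes most like Pde3a. Without length, Pde3a made up 78.1% of the members' summed level in WT, against 69.98% per length. Chosen after seeing the data, leaving out Pde6d, Pde6g and Pde6h put Pde3a at 41.3% of the phosphodiesterase genes' level in WT, against 36.54% with them. The depth limits Pde1c and Pde10a most, with 18 and 41 counts over the WT libraries. The causes of these shifts were not tested.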
